A study of Rattus norvegicus with 4 samples.

Results

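Solute carriers are the membrane proteins, named with the symbol prefix Slc, that move amino acids, nucleosides, ions, metals, vitamins, organic acids and sugars across the plasma membrane and the membranes of organelles. The genes described here are those with such a symbol, less Slc2a1, Slc2a3, Slc16a1, Slc16a3, Slc6a2, Slc6a3, Slc18a1 and Slc18a2, which carry glucose, lactate or monoamines. Other carriers of glucose or monoamines, among them Slc2a4, Slc5a2 and Slc6a4, were not left out. A gene was kept when its probe was well above the array's background on at least 2 of 4 arrays. This gave 149 genes out of 25356 tested. Probes for 207 such genes were named on the array, of 423 rat genes with such a symbol in RefSeq. Of the 207, 58 did not pass the background filter, 13 of them with a best probe above background on 1 array and 45 on none. Of the 149 that passed, 135 were well above background on all 4 arrays, 10 on 3 and 4 on 2.

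The carriers fall into families that differ in what drives transport: some couple uptake to the sodium gradient, some exchange one solute for another, and some only let a solute run down its gradient. Supply of amino acids, nucleosides and folate through them feeds protein and nucleotide synthesis, and several amino acid carriers are known targets of the MYC transcription factors, for which MAX is the obligate partner. In chromaffin cells and neurons, vesicular and plasma membrane carriers also load and recover transmitters.

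The RNA came from PC12 cells, a line derived from a rat adrenal pheochromocytoma that is known to lack functional MAX. One derived line carried an empty vector and its counterpart carried a plasmid coding for MAX, both introduced by nucleofection followed by drug selection. Total RNA of each line was hybridised at passages 8 and 13 to one-colour arrays, so each group is 1 transfected line with n = 2 arrays, and the labels do not say which array is which passage. P-values thus measure the spread between samples of a line and not between transfections.

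The 75th percentile of the signal lay between 590.0 and 700.5 units over the 4 arrays, 64.5 to 71.6% of probes were well above background, and no spot was saturated. The first MAX array sat alone on a slide of its own and the other 3 arrays shared the other slide. No probe was named Max, so the level of the transfected gene was not checked. Of 12 chromaffin markers 10 had a named probe. Of these, 7 were well above background on all 4 arrays, among them Th, Ddc, Chga, Chgb and Phox2a. Th and Npy rose and Ddc fell with MAX. Snap25 also passed the adjusted threshold, with higher MAX values, but its probe was well above background on only 2 arrays. It read -8.04 and -7.82 with the empty vector against -5.20 and -4.91 with MAX. The empty vector values lay under the lowest well-above-background signals of those arrays (-6.53 and -6.07). Snap25 thus passed the background filter only through the MAX arrays. The summed level of the chromaffin markers was 4.24 to 4.25 (log2) in the empty vector arrays and 3.44 to 3.47 in the MAX arrays. Such sums add unlogged signals, so the brightest gene weighs most. Here Ddc made up most of the sum, at 4.03 and 4.04 against 2.95 and 2.94. At an unadjusted p under 0.05, 3 chromaffin markers were higher with MAX and 3 were lower. For markers of other cells, the summed level was 2.98 to 2.99 against 3.62 to 3.72 for 5 epithelial genes, 2.29 to 2.49 against 3.15 to 3.19 for 5 macrophage genes and 7.07 to 7.22 against 7.13 to 7.23 for 5 fibroblast genes. No gene of these 3 lists passed the adjusted threshold. At an unadjusted p under 0.05, 5 epithelial and 2 macrophage genes were higher with MAX, and 1 fibroblast gene was higher and 2 were lower. Cd14 made up most of the macrophage sum and Col3a1 most of the fibroblast sum. In the macrophage list Adgre1 had a log2 fold change of -0.73 and Csf1r 0.06. The summed level was -0.83 to -0.67 against -0.9998 to -0.66 for 5 Schwann cell genes and -2.79 to -2.66 against -2.56 to -2.25 for 3 adrenal cortex genes, with S100b and Cyp11b1 not well above background on any array. The part of these markers in the results below was not tested, and in bulk RNA fewer cells of a type and less RNA per cell cannot be told apart.

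Slc1a3, which codes for the glial-type glutamate and aspartate carrier GLAST, rose with MAX, and Slc5a5, which codes for the sodium-iodide symporter, fell. They were the 2 members with an adjusted p under 0.05, or 1.34% of members. In the same limma fit 213 of 25356 genes passed, which is 0.84% of all genes tested (0.576% higher, 0.264% lower) and 1.44% of the 6316 genes with a symbol. At an unadjusted p under 0.05 there were 14 members higher and 19 lower, 9.4% and 12.8% of members, against 7.93% and 8.21% of all genes. In either direction that is 22.1% of members, 16.1% of all genes and 18.9% of genes with a symbol. The lower members include Slc27a2 and Slc38a5, which passed the background filter only through the empty vector arrays. Arrays of the 2 groups did not overlap for 78 members, or 52.3% against 50.2% of all genes and 55.1% of genes with a symbol. Of these 38 were higher and 40 lower, 25.5% and 26.8% of members against 24.2% and 26% of all genes. The difference between groups exceeded the difference between replicates in both groups for 60 members, 40.3% against 37.2% of all genes and 42.2% of genes with a symbol. With normexp background correction, an alternative that models each array's background, 8 members passed the adjusted threshold, or 5.37%, against 3.13% of all genes and 5.26% of genes with a symbol. The members' shares lay near those of genes with a symbol. Their median log2 fold change was -0.02, equal to that of all genes at -0.02, and the median size of the change was 0.166 against 0.16.

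**Figure D1:**
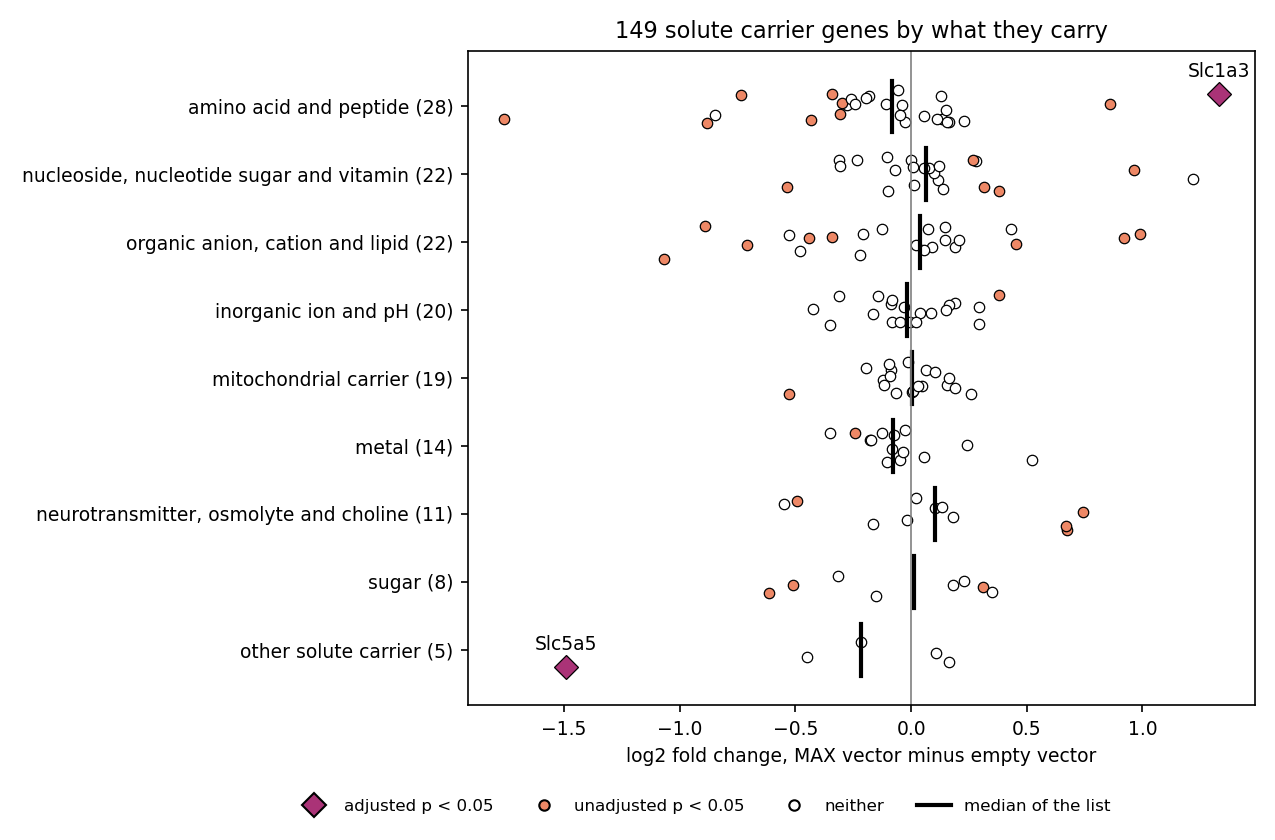
Log2 fold change of MAX vector minus empty vector arrays (horizontal axis) for each of the 149 solute carrier genes, grouped by what they carry; each point is a gene, diamonds mark an adjusted p under 0.05, filled circles an unadjusted p under 0.05, and the short line is the median of its group. Slc1a3 lies farthest to the right at 1.33 and Slc6a7 farthest to the left at -1.76, while the mitochondrial carriers stay between -0.53 and 0.26.

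MAX, paired with MYC or a MYC relative, is known to bind the E-box CACGTG. The 250 bases before the start site are shown for the pair of genes past the adjusted threshold, and, for contrast, for 3 of the genes that hold an E-box and had an unadjusted p under 0.05. They come from the RefSeq promoter table of build GRCr8, are written 5′ to 3′ on the gene's strand, and carry each CACGTG in capitals. Slc17a3 (lower with MAX) and Slc29a2 (higher) also met this description and are not shown. Their motif started 168 and 161 bases before the start site.

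Slc1a3 (chr2:59557809-59558058, minus strand): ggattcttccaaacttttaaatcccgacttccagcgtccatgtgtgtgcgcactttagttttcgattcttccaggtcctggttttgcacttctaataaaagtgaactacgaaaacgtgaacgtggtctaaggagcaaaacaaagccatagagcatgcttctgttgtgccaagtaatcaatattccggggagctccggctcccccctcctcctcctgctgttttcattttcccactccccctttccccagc

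Slc5a5 (chr16:18580455-18580704, plus strand): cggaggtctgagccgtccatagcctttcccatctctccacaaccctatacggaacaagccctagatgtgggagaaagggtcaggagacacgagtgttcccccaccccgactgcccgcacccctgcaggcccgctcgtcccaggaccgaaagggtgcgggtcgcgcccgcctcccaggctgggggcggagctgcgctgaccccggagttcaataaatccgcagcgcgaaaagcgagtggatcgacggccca

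Slc13a3 (chr3:174623894-174624143, minus strand): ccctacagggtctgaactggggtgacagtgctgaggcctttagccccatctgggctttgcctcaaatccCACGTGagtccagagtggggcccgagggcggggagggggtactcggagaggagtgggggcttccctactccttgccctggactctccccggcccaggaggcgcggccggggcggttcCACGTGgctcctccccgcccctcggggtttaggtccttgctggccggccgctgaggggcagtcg

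Slc7a5 (chr19:66872413-66872662, minus strand): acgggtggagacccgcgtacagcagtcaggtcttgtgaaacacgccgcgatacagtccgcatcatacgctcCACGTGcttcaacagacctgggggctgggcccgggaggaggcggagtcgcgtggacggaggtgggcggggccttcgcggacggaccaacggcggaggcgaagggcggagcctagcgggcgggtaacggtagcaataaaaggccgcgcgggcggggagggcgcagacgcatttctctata

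Slc36a1 (chr10:39824785-39825034, plus strand): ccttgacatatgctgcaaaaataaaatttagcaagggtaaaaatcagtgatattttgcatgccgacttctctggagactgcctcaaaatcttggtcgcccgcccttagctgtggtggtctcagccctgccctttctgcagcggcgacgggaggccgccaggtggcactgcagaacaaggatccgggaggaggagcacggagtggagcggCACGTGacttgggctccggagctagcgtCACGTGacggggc

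Neither the Slc1a3 nor the Slc5a5 sequence shown held a CACGTG in this window. Slc1a3 has 3 promoter entries, and the others were not searched. For each named gene only the first entry was used, while the rate over the whole promoter table counts every entry. In Slc13a3 the motif started 181 and 64 bases before the start site, in Slc7a5 179 bases before it and in Slc36a1 41 and 13 bases before it. Slc13a3 had higher values in the MAX arrays and Slc7a5 and Slc36a1 lower ones. The motif reads the same on both strands. Counted in the window from 250 bases before to 50 after the start, it was present in 19 of 126 members with a promoter entry (15.1%), in 473 of 5149 tested genes with a symbol (9.19%) and in 2148 of 33469 promoters in the table (6.42%). Among members at an unadjusted p under 0.05 it was present in 2 of 11 that were higher and 3 of 16 that were lower. The shorter ACGTG, which overlaps it, was found in 35 of 126 members (27.8%) and 25.1% of tested genes with a symbol. A match is a description of the letters; no binding was measured.

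Amino acid and peptide carriers formed the largest group. Of 28 measured members 1 rose, Slc1a3, and none fell past the adjusted threshold; at an unadjusted p under 0.05 there were 2 higher and 7 lower. Over all genes, 7.93% were higher and 8.21% lower at that threshold. The median log2 fold change was -0.08, with 18 members below 0 and 10 above. Over all 25356 genes, 13573 lay below 0 and 11783 above.

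All signals here are log2 values less the 75th percentile of their array. On this scale Slc1a3 read -0.52 and -0.36 on the empty vector arrays against 0.86 and 0.92 on the MAX arrays. The groups did not overlap, and the log2 fold change was 1.33 ± 0.10 (SE, n = 2 per group), a 2.52-fold higher level (adjusted p = 0.0391). A second probe for the gene gave a log2 difference of 1.10. The call was lost when any 1 array was left out, with adjusted p between 0.0651 and 0.356 and log2 fold changes between 1.25 and 1.41; within the slide that held 3 arrays the difference was 1.36 (adjusted p = 0.106).

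The relatives of Slc1a3 among the glutamate and neutral amino acid carriers did not pass the adjusted threshold. Slc1a1, a neuronal and epithelial glutamate carrier, was at -3.91 and -3.91 on the empty vector arrays against -3.94 and -3.94 on the MAX arrays, a log2 fold change of -0.03 ± 0.08 (adjusted p = 0.896). Slc1a2, the main astrocyte glutamate carrier, was at -4.89 and -4.13 against -5.12 and -5.60, which is -0.85 ± 0.33 (adjusted p = 0.338). For the neutral amino acid exchangers, the values were -0.28 ± 0.10 for Slc1a4 (adjusted p = 0.326) and -0.04 ± 0.09 for Slc1a5 (adjusted p = 0.857). Among these Slc1 genes, only Slc1a3 had both MAX arrays above both empty vector arrays.

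Slc38a4, a sodium-coupled carrier of neutral and cationic amino acids, had the next highest value of the group. Its arrays read 1.13 and 1.36 with the empty vector against 2.18 and 2.03 with MAX, without overlap. The log2 fold change was 0.86 ± 0.13, or 1.82-fold (adjusted p = 0.101), and 0.89 after normexp background correction (adjusted p = 0.00159). In the same family, Slc38a1, Slc38a2 and Slc38a5 had values on the other side of 0. Slc38a1, a glutamine carrier of neurons, read 0.11 and 0.13 against -0.16 and -0.21, a log2 fold change of -0.31 ± 0.09 (adjusted p = 0.239). Slc38a2, a carrier induced when amino acids are short, read 5.94 and 5.86 against 5.58 and 5.62, which is -0.30 ± 0.09 (adjusted p = 0.252), and -0.47 by its second probe. Slc38a5, a carrier that exchanges glutamine and sodium for protons and can run either way, was well above background on both empty vector arrays and neither MAX array. Its measured means were -5.75 and -6.63, and on the processed signal its level was at least 1.07-fold higher with the empty vector. The fitted difference did not pass the test (adjusted p = 0.198). After normexp it was -0.075 (adjusted p = 0.924), smaller than that bound. Slc38a5 passed the background filter only through the empty vector arrays.

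The exchanger of large neutral amino acids is a pair of proteins, the transporter Slc7a5 and the heavy chain Slc3a2, and Slc7a5 is a known MYC target in other cells. Slc7a5 read -0.51 and -0.47 on the empty vector arrays against -0.96 and -0.88 on the MAX arrays. The log2 fold change was -0.43 ± 0.09, a 1.35-fold lower level (adjusted p = 0.158). Slc3a2 read 3.52 and 3.56 against 3.28 and 3.11, a log2 fold change of -0.34 ± 0.10 (adjusted p = 0.262). Both partners had lower MAX values on each array, and neither passed the test. Slc7a8, a related exchanger, had -0.26 ± 0.12 (adjusted p = 0.397). Slc7a11, Slc7a1 and Slc43a1 had no probe named here.

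Slc36a1, a proton-coupled amino acid carrier of lysosomes and the cell surface, read -3.58 and -3.24 with the empty vector against -4.39 and -3.90 with MAX, a log2 fold change of -0.74 ± 0.23 (adjusted p = 0.263). Slc6a7, the proline carrier of brain synapses, read -3.76 and -3.61 against -5.87 and -5.02, with 1 MAX array not well above background. Its log2 fold change of -1.76 ± 0.32 had the largest size of any member, but the MAX arrays differed from each other by 0.85 and the adjusted p was 0.134. After normexp it was -0.53 (adjusted p = 0.0331).

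**Figure D2:**
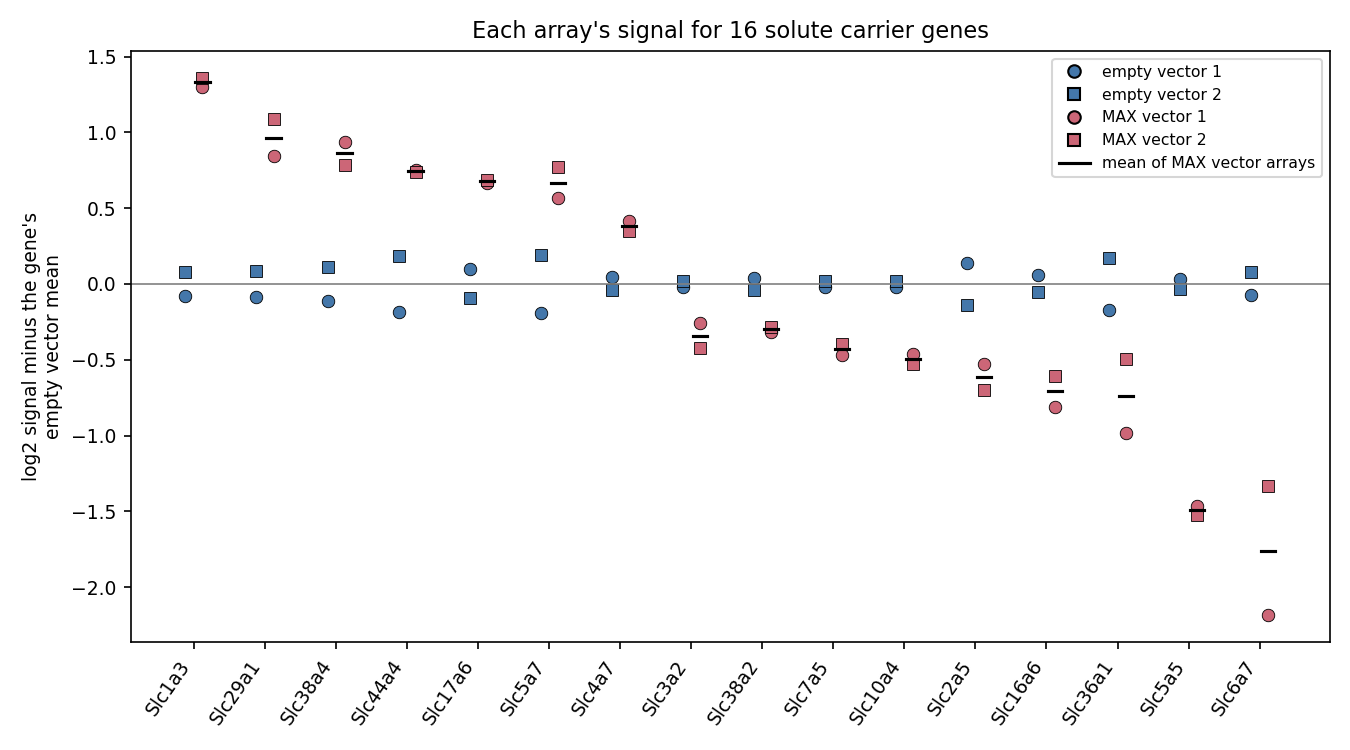
Log2 signal of each of the 4 arrays minus the gene's mean over the empty vector arrays (vertical axis) for 16 solute carrier genes; points are arrays, with colour for the group and shape for the replicate, and short lines are the means of the MAX arrays. Both MAX arrays lie above both empty vector arrays for Slc1a3 and Slc29a1 and below them for Slc5a5 and Slc7a5.

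Among carriers of nucleosides, nucleotide sugars and vitamins, 22 members were measured, and none passed the adjusted threshold. At an unadjusted p under 0.05, 4 were higher and 1 lower, against 7.93% and 8.21% of all genes. The median log2 fold change was 0.07. Slc29a1, the equilibrative nucleoside carrier that lets purine and pyrimidine nucleosides into most cells, read 1.40 and 1.57 on the empty vector arrays against 2.33 and 2.57 on the MAX arrays. The groups did not overlap. The log2 fold change was 0.97 ± 0.14, or 1.95-fold (adjusted p = 0.0936); with normexp it was 0.89 (adjusted p = 0.00584), and within the slide of 3 arrays it was 1.09 (adjusted p = 0.133).

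In the same family, Slc29a2, which also carries nucleobases, read -3.17 and -3.22 against -2.75 and -2.89, a log2 fold change of 0.38 ± 0.10 (adjusted p = 0.222). Slc29a3, a nucleoside carrier of lysosomes, read 1.02 and 0.91 against 0.77 and 0.69, which is -0.23 ± 0.10 (adjusted p = 0.354). For Slc28a1, a sodium-coupled pyrimidine nucleoside carrier, the fitted value of 1.22 ± 1.07 (adjusted p = 0.623) came from 1 array: it read -4.51 and -4.32 with the empty vector against -4.68 and -1.71 with MAX, and without the second MAX array the difference was -0.27.

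Slc35b1, an ATP/ADP exchanger of the endoplasmic reticulum, read 4.60 and 4.69 against 5.00 and 4.92, a log2 fold change of 0.32 ± 0.10 (adjusted p = 0.255). The lysosomal carrier Slc46a3 had 0.27 ± 0.09 (adjusted p = 0.275). Slc52a3, a riboflavin carrier, read -2.82 and -2.78 against -3.25 and -3.42, which is -0.53 ± 0.10 (adjusted p = 0.146). Slc19a1, the reduced folate carrier, read 1.35 and 1.14 against 1.20 and 1.15. Its arrays overlapped between groups, and the log2 fold change was -0.07 ± 0.11 (adjusted p = 0.79).

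Carriers of neurotransmitters, osmolytes and choline numbered 11, of which none passed the adjusted threshold. At an unadjusted p under 0.05, 3 were higher and 1 lower, against 7.93% and 8.21% of all genes. The median log2 fold change was 0.10. Slc17a6, the vesicular glutamate carrier VGLUT2, read -4.34 and -4.53 on the empty vector arrays against -3.77 and -3.75 on the MAX arrays. The groups did not overlap, and the log2 fold change was 0.68 ± 0.11 (adjusted p = 0.113), or 0.25 after normexp (adjusted p = 0.434). Slc5a7, the high-affinity choline uptake carrier of cholinergic neurons, read -1.98 and -1.60 against -1.22 and -1.02, a log2 fold change of 0.67 ± 0.18 (adjusted p = 0.218), which was 0.57 after normexp (adjusted p = 0.0378). Slc44a4, a carrier of choline and thiamine pyrophosphate, read -4.22 and -3.85 against -3.28 and -3.30, which is 0.74 ± 0.16 (adjusted p = 0.165). Slc10a4, a synaptic vesicle protein of cholinergic and monoaminergic neurons, was the lower one. It read -3.01 and -2.97 against -3.45 and -3.52, a log2 fold change of -0.49 ± 0.09 (adjusted p = 0.131).

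Carriers of organic anions, organic cations and lipids numbered 22, with none past the adjusted threshold. At an unadjusted p under 0.05, 3 were higher and 5 lower, against 7.93% and 8.21% of all genes. The median log2 fold change was 0.04. Slc22a18, an imprinted gene that codes for an organic cation carrier, read -0.33 and -0.16 on the empty vector arrays against 0.27 and 0.15 on the MAX arrays, which is 0.45 ± 0.11 (adjusted p = 0.205). Slc16a6, a carrier of ketone bodies and taurine, read 0.73 and 0.62 against -0.14 and 0.07, without overlap. The log2 fold change was -0.71 ± 0.12 (adjusted p = 0.12), and -0.66 after normexp (adjusted p = 0.0101); a second probe gave -0.39.

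Among the anion carriers, 2 genes lay close to the threshold but also close to background. Slc13a3, a sodium-coupled dicarboxylate carrier, read -6.13 and -6.03 against -5.02 and -5.16, a log2 fold change of 0.99 ± 0.10 (adjusted p = 0.0575). Slc17a3, an organic anion and urate carrier of kidney, read -5.13 and -5.06 against -6.07 and -5.92, a log2 fold change of -0.89 ± 0.10 (adjusted p = 0.0674). Each was well above background on 3 arrays, and after normexp the values were 0.14 and -0.14. The values after normexp were thus far smaller than those on the processed signal for both genes. Slc13a2, the relative of Slc13a3 that takes up citrate and succinate, had -0.44 ± 0.11 (adjusted p = 0.216), and the lysosomal sialic acid exporter Slc17a5 had -0.34 ± 0.10 (adjusted p = 0.239). Slc27a2, a very long chain fatty acid carrier and acyl-CoA synthetase, was well above background on both empty vector arrays and neither MAX array; its measured means were -5.26 and -6.33, and on the processed signal its level was at least 1.5-fold higher with the empty vector. The fitted difference did not pass the test (adjusted p = 0.223), and after normexp it was -0.10 (adjusted p = 0.873), smaller than that bound. Slc22a2, an organic cation carrier of kidney, was above background on 2 arrays, read -8.77 and -5.24 against -7.83 and -5.76, and had no direction that held across arrays (0.21 ± 1.46).

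Of 8 sugar carriers none passed the adjusted threshold, and the median log2 fold change was 0.01. At an unadjusted p under 0.05, 1 was higher and 2 were lower, against 7.93% and 8.21% of all genes. Slc2a5, the fructose carrier, read -0.45 and -0.72 on the empty vector arrays against -1.11 and -1.28 on the MAX arrays, a log2 fold change of -0.61 ± 0.14 (adjusted p = 0.189), which was -0.53 after normexp (adjusted p = 0.0404). Slc45a1, a proton-coupled sugar carrier of brain, read -1.57 and -1.49 against -2.10 and -1.99, which is -0.51 ± 0.10 (adjusted p = 0.14). Slc2a8, an intracellular hexose carrier, read -0.37 and -0.19 against 0.02 and 0.05, a log2 fold change of 0.31 ± 0.11 (adjusted p = 0.293). Slc37a4, the glucose-6-phosphate carrier of the endoplasmic reticulum, had 0.23 ± 0.08 (adjusted p = 0.321).

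Slc5a5, the other gene past the threshold, takes iodide into thyroid cells and belongs to the family of the sodium-glucose carriers. Its log2 signals were -4.07 and -4.14 on the empty vector arrays against -5.57 and -5.63 on the MAX arrays, so the arrays of each group lay close together and far from the other group. The log2 fold change was -1.49 ± 0.09, a 2.81-fold lower level with MAX (adjusted p = 0.0283). The probe was dim: it was well above background on 3 arrays and not on the first MAX array. After normexp the log2 fold change was -0.41 (adjusted p = 0.123). Leaving out any 1 array gave adjusted p between 0.0554 and 0.318, with log2 fold changes between -1.52 and -1.46, and within the slide of 3 arrays the difference was -1.52 (adjusted p = 0.0848). The symbol rule left 4 further genes outside the other groups, none past either threshold. Their log2 fold changes were 0.11 and -0.22 for the urea carriers Slc14a1 and Slc14a2, -0.45 for Slc7a3l1 and 0.16 for Slc7a6os, which is named for its place opposite a carrier gene and is not itself a carrier.

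**Figure D3:**
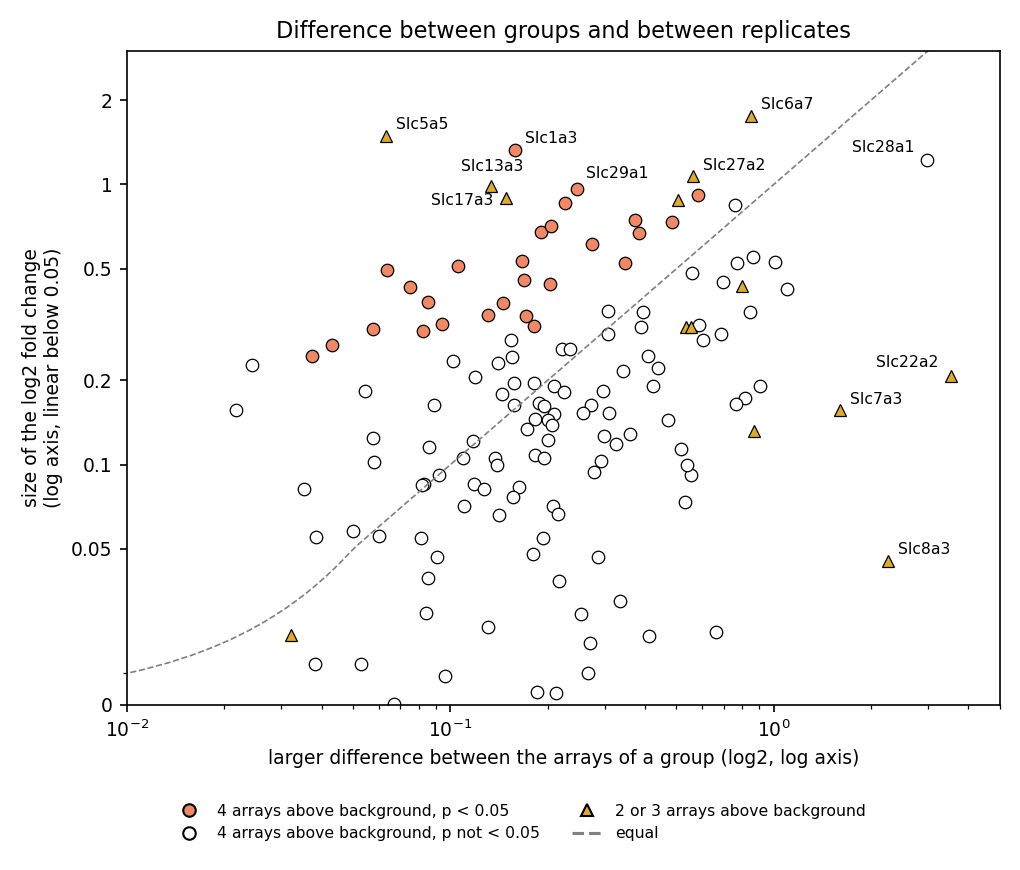
Size of the log2 fold change between groups (vertical axis, log scale, linear below 0.05) against the larger of the differences between the 2 arrays of a group (horizontal axis, log scale) for each of the 149 genes, with a dashed line where both are equal; filled circles have an unadjusted p under 0.05 and triangles were well above background on 2 or 3 arrays. Points above the line are the 60 genes whose groups differed by more than their replicates, Slc1a3 and Slc5a5 among them.

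The group of inorganic ion carriers held 20 genes and left out the iodide carrier Slc5a5, described above. None of the 20 passed the adjusted threshold, and no log2 fold change among them reached 0.5 in size. At an unadjusted p under 0.05, 1 was higher and 0 lower, against 7.93% and 8.21% of all genes. That 1 gene was Slc4a7, a sodium bicarbonate cotransporter, which read -0.67 and -0.76 against -0.30 and -0.37, a log2 fold change of 0.38 ± 0.09 (adjusted p = 0.199). Slc12a2, the sodium-potassium-chloride cotransporter, had overlapping arrays and a log2 fold change of -0.08 ± 0.10 (adjusted p = 0.732). The phosphate carriers Slc20a1 and Slc20a2 had -0.08 ± 0.09 (adjusted p = 0.682) and 0.08 ± 0.09 (adjusted p = 0.68).

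Mitochondrial carriers, the Slc25 family of the inner membrane, had the smallest median size of change of any group, 0.0939 over 19 genes. None passed the adjusted threshold. At an unadjusted p under 0.05, 1 was lower, against 8.21% of all genes. That gene, Slc25a37, brings iron into mitochondria for heme synthesis. It read -4.25 and -4.47 against -5.06 and -4.71, a log2 fold change of -0.53 ± 0.17 (adjusted p = 0.275), which was -0.09 after normexp. The adenine nucleotide carriers, which exchange ADP for ATP, had arrays that overlapped between groups. Slc25a4 read 6.53 and 6.46 against 6.65 and 6.39 (0.03 ± 0.13, adjusted p = 0.929). Slc25a5 read 4.62 and 4.60 against 4.61 and 4.47 (-0.07 ± 0.10, adjusted p = 0.774).

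Of 14 metal carriers none passed the adjusted threshold. Values below 0 were seen in 11 of them, against 13573 of all 25356 genes. At an unadjusted p under 0.05, 1 was lower, against 8.21% of all genes. This was Slc11a2, the importer of ferrous iron, at 1.04 and 1.002 on the empty vector arrays against 0.76 and 0.80 on the MAX arrays, a log2 fold change of -0.24 ± 0.09 (adjusted p = 0.303). The iron exporter Slc40a1 had -0.17 ± 0.32 (adjusted p = 0.821) and the zinc exporter Slc30a1 -0.13 ± 0.14 (adjusted p = 0.693). The copper importer Slc31a1 had -0.35 ± 0.35 (adjusted p = 0.669) and the zinc carrier Slc30a2 0.52 ± 0.30 (adjusted p = 0.479). None of these 4 values reached 2 times its SE.

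Several members were read by more than 1 probe. Of 31 such genes, 25 had probes that agreed in direction. In Slc25a4, Slc25a5, Slc2a4, Slc39a11, Slc46a1 and Slc5a2 they did not, and those genes have no settled direction. Just outside the background filter, with a best probe above background on 1 array, were 13 genes, among them Slc2a2 (a log2 difference of 1.97), Slc17a1 (1.69) and Slc15a1 (-1.45), each read near background.

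Replicates lay close together in the members. The median difference between the 2 arrays of a group was 0.10 for the empty vector and 0.15 for MAX, against 0.12 and 0.15 over all genes. Over the members, Pearson's r across genes was 0.993 for the pair of empty vector arrays, 0.989 for the MAX pair and 0.984 to 0.989 between groups; genes are not independent replicates.

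**Figure D4:**
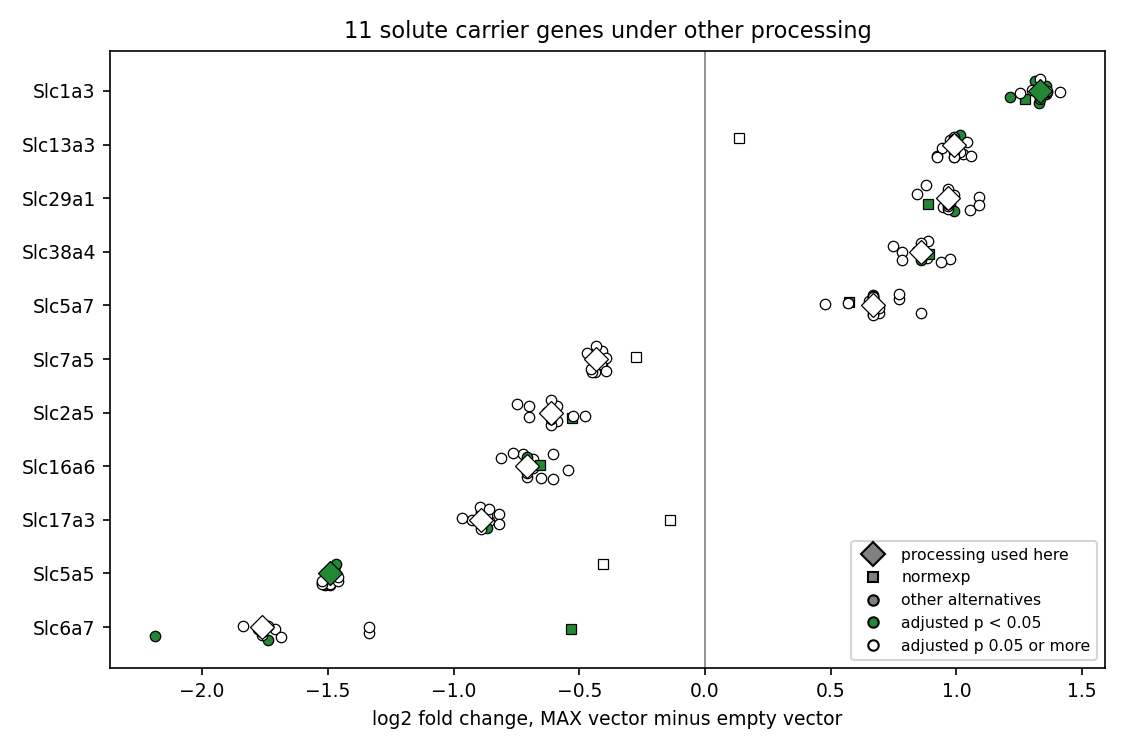
Log2 fold change of MAX vector minus empty vector (horizontal axis) for 11 solute carrier genes under the main processing and each of 16 alternatives; diamonds are the processing used, squares normexp, circles the others, and filled symbols have an adjusted p under 0.05. Slc1a3 stays at the right of 0 and Slc5a5 at the left under every setting shown, and the values of dim genes such as Slc6a7 come closer to 0 after normexp.

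Transporters with other symbols gave a comparison. Of 24 ABC transporters, 10 P-type ATPase genes, 3 organic anion transporting polypeptides and 12 carriers with other symbols, none passed the adjusted threshold; at an unadjusted p under 0.05 there were 2, 3, 0 and 2 higher and 1, 1, 1 and 1 lower. Of 6 aquaporins 1 rose and none fell past the adjusted threshold, which 0.84% of all genes passed. At an unadjusted p under 0.05 there were 3 higher and 2 lower. Of all genes, 7.93% were higher and 8.21% lower at an unadjusted p under 0.05. The gene that rose was the water channel Aqp1. It read -3.78 and -3.66 on the empty vector arrays against -1.62 and -1.31 on the MAX arrays, a log2 fold change of 2.26 ± 0.14, or 4.79-fold (adjusted p = 0.0305). Aqp5, another water channel, had 1.01 ± 0.11 (adjusted p = 0.0674). The remaining higher one, Aqp9, read -6.89 and -7.82 on the empty vector arrays against -5.45 and -5.31 on the MAX arrays (adjusted p = 0.127). It was well above background on only 2 arrays and passed the background filter only through the MAX arrays. The lower ones were Aqp3 at -1.09 ± 0.39 (adjusted p = 0.31) and Aqp11 at -0.42 ± 0.10 (adjusted p = 0.194).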

How the data were processed

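RNA of 4 samples was read on one-colour Agilent rat arrays, 100 ng labelled per array, per the labels' protocols. The deposited scanner files hold spot intensity, written by Feature Extraction 10.7.3.1 (10.7 per the submitters' processing notes) with annotation of build rn4, background-subtracted within each array, per the file headers. The authors' deposited value table holds log2 values; they follow the scaled processed intensity computed here (SD of the disagreement at most 2.83e-07). Its scale and direction are settled in that way, and the baseline each probe is centred on is unknown (column medians -0.033, -0.011, -0.005 and -0.006).

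Here, spots with an outlier flag (89 to 140 per array) were left out, log2 processed intensity was averaged per probe, and each array's 75th percentile over 40923 probes was subtracted. Probes well above background on at least 2 arrays (28564) were tested, with the brightest probe per gene, which gave 25356 genes. Symbols came from RefSeq accessions matched to the RefSeq table of GRCr8: 10768 of 41012 probes (26.3%) were named, so only part of the family was measured. The test was the moderated linear model of limma 3.58.1 (R 4.3.3, 3.94 degrees of freedom in total). P-values were adjusted over all genes by the Benjamini-Hochberg method and called under 0.05, and ± gives the SE of the log2 fold change. On simulated data with 25356 genes, 200 genes per run were changed and the noise was normal and independent between genes. There the test recovered 1.94% of genes simulated at 2-fold, 71% at 4-fold and 90% at 16-fold, and 5.65% of its calls were false. Other shares of changed genes were not simulated, so these rates need not hold for the measured data.

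The members, the groups by what they carry and the lists of other genes were chosen with earlier results of these data known. The text names members past the adjusted threshold, in each group up to 3 higher and 3 lower genes with an unadjusted p under 0.05 on all 4 arrays, genes above background in 1 group only, and preset amino acid, folate, nucleoside, phosphate, chloride, iron, zinc and adenine nucleotide carriers, 37 in all, of which 1 is not reported here. All other members were named after their values were seen, among them Slc13a3, Slc17a3, Slc6a7, Slc28a1, Slc38a1, Slc46a3, Slc1a1, Slc1a2, Slc1a4, Slc29a3, Slc22a2, Slc31a1, Slc30a2, Slc7a8 and Slc37a4, and so were Aqp3, Aqp5, Aqp9 and Aqp11.

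A fold written with "at least" concerns a probe that stood above background in neither sample of the dimmer group. It divides the brighter group's mean by the dimmer arrays' detection limit (the lowest well-above-background signal) or the measured signal, whichever is higher. The precision of every value is limited by the 4 arrays. A total of 16 alternatives was tried: other scalings, background correction, filters, probe rules, variance moderation, blocks, the value table and leaving out each array. Normexp used the median spot signals, in place of the planned mean signals, which were not used here; this and the 75th percentile over spots were chosen after seeing the data.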

Additional observations from a re-analysis of the deposited data

How the results depend on the processing

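With n = 2 per group and 3.94 degrees of freedom, counts of calls moved with the processing. All 33 members at an unadjusted p under 0.05 kept their sign in each alternative that gave them a value. That was all 16 for 27 of them and all but the filter on 4 arrays for the other 6. These members were picked on the same arrays, and in each of them the groups did not overlap. Leaving out an array or adding a block could therefore not turn their sign, so those alternatives do not test the directions. The median log2 fold change of the members stayed between -0.04 and 0.02. Across genes, the first replicate's deviation from its group mean had a correlation of -0.018 between the groups. This cannot decide whether replicate numbers mark pairs, because the first MAX array sat alone on its slide.

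The number of members called was 2 in the processing used, 1 with quantile normalization, 6 with median scaling, 8 with normexp, 6 with trended and robust moderation, 0 without a filter on dim probes, 0 with the replicate block and 0 with the slide block. The number for all genes called was 213, against 541 with median scaling, 794 with normexp, 515 on probes above background on all 4 arrays, 1098 with trended and robust moderation, 0 without the filter (4033 at an unadjusted p under 0.05), 0 with the replicate block (3885) and 8 with the slide block. Leaving out 1 array gave 0 to 1 members and 0 to 144 genes: 0 genes without either empty vector array (1963 and 2456 at an unadjusted p under 0.05), 8 without the first MAX array and 144 without the second. Of the calls, 68.5% were higher, 54.0% with normexp and 49.3% without the second MAX array. The cause of these shifts was not tested. The slide block rests on the 3 arrays of a slide, so it gives the values without the first MAX array.

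Members called with normexp included Slc16a6, Slc1a3, Slc29a1, Slc2a5, Slc38a4, Slc5a7 and Slc6a7. Slc1a3 missed the threshold in 7 of 16 alternatives and Slc5a5 in 9 of 15.

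Among members with a log2 fold change given above, signs turned in the genes that follow, most of them near 0 or dim. Signs also turned in members not described above. For example, Slc8a3 kept its sign in 10 of 15 alternatives, and Slc25a11, Slc8b1 and Slc35b2 kept theirs in 10 of 16. Slc20a2 was -0.044 with normexp. Slc22a2 was -0.055 with normexp, -0.26 with quantile normalization and -1.56 to 1.97 when an array was left out. Slc25a4 was -0.012 with probes averaged, -0.10 with the slide block and -0.10 to 0.16 when an array was left out. With the slide block Slc31a1 was 0.073 and Slc40a1 0.23, and when an array was left out they ranged from -0.77 to 0.073 and from -0.58 to 0.23. On leaving out an array, Slc28a1 ranged from -0.27 to 2.71, Slc19a1 from -0.17 to 0.033, Slc30a1 from -0.28 to 0.022, Slc1a5 from -0.083 to 0.0022 and Slc25a5 from -0.137 to 0.00495.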
